A study of Homo sapiens with 8 samples.

Results

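The postconfluent libraries of 2 tagged Caco-2/15 lines were compared across all genes: 2 libraries of Z2flag cells against 2 libraries of Z1flag cells, chosen by their labels, out of 8 libraries in the series. Caco-2/15 is a line derived from Caco-2 human colon cancer cells. In Z1flag cells a Flag tag had been placed by CRISPR-Cas9 editing in H2AFZ, the gene of the histone isoform H2A.Z.1, now named H2AZ1. In Z2flag cells it had been placed in H2AFV, the gene of H2A.Z.2, now named H2AZ2. In both lines the tag is heterozygous, so the lines differ in which gene carries the tag, and an untagged line was not analysed here. All 4 libraries were made from total RNA of cells 7 days after confluence, without ribosomal RNA. The other 4 libraries of the series, from subconfluent cells of the same lines, give a reference level for each gene and enter the same model, so they also supply part of the spread behind each p-value. The labels call the libraries duplicates and number them Exp1 and Exp2. The sources used here do not say whether these are separate cultures, whether the numbers mark a shared day, or whether a line is 1 clone or a pool. The p-values therefore measure the spread between these samples, which may be technical.

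H2A.Z is a variant of histone H2A that is exchanged into nucleosomes around transcription start sites and enhancers. The SRCAP and p400/TIP60 complexes insert it, and INO80 and the chaperone ANP32E are known for removing it. Caco-2 cells stop dividing at high density and then acquire features of small intestinal enterocytes, among them a brush border, digestive enzymes on it and the secretion of lipoproteins, together with some proteins that are otherwise made by the liver. The extent of this programme is known to depend on density and time, so the state of each culture was described beside the comparison of the lines.

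Gene counts were 24624796 in Z1flag Exp1, 19840863 in Z1flag Exp2, 19540632 in Z2flag Exp1 and 17063826 in Z2flag Exp2. Reads that overlapped no annotated feature made up 31.4% of the reads listed for Z1flag Exp1 and 20.6% to 23.4% in the other postconfluent libraries. After a filter on low counts, 18240 of 58302 gene IDs were tested. Levels are given as CPM, counts relative to library size after TMM scaling, which are not corrected for gene length and are compared within a gene only. Where 4 levels are listed in a row, they stand in the order Z1flag Exp1, Z1flag Exp2, Z2flag Exp1, Z2flag Exp2.

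The tagged genes themselves were expressed in every library. H2AZ1 (chr4:99948086-99950388, GRCh38, minus strand) stood at 108, 197, 191 and 187 CPM. H2AZ2 (chr7:44826791-44848083, minus strand) stood at 42.8, 57.0, 55.3 and 58.2 CPM. Z1flag Exp1 was the lowest library for both genes, and the other 3 libraries lay close together. The fitted log2 difference, Z2flag minus Z1flag, was 0.31 for H2AZ1 (95% interval -0.27 to 0.90) and 0.19 for H2AZ2 (-0.25 to 0.62), neither past the threshold (edgeR quasi-likelihood test, adjusted p = 0.708 and 0.762). Without Z1flag Exp1 the difference for H2AZ1 turned to -0.039. The counts do not separate tagged from untagged alleles.

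Between the lines no gene passed an adjusted p of 0.05 in postconfluent cells (edgeR quasi-likelihood test, percent called 0 in each direction, lowest adjusted p = 0.638). At an unadjusted p under 0.05, 411 genes were higher in Z2flag cells (2.25%) and 897 were lower (4.92%), 1308 in all (7.17%). The side with more of these genes depended on Z1flag Exp1: without that library 514 were higher and 220 lower. With the postconfluent libraries alone 117 were higher and 327 lower, and the lowest adjusted p was 0.995. The fitted difference was at least 2-fold for 364 genes higher (2%) and 1228 lower (6.73%) in Z2flag cells, whatever their p. Both Z2flag libraries lay above both Z1flag libraries for 2344 genes (12.9%) and below them for 2793 (15.3%). DESeq2 also called 0 genes, with 495 higher and 713 lower at an unadjusted p under 0.05, and limma voom called 0, with 457 and 735. In subconfluent cells the same comparison called 0 genes, with 195 at an unadjusted p under 0.05 (1.07%). The test of whether the line difference itself differed between the states called 0 genes, with 902 at an unadjusted p under 0.05 (4.95%).

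The absence of calls depended on 1 library and on the filter. Without Z1flag Exp2, which left Z1flag Exp1 as the lone Z1flag postconfluent library and borrowed its spread from the other groups, 2252 genes passed, 1196 higher and 1056 lower in Z2flag cells. Without a filter on low counts 221 passed, 66 higher and 155 lower. Of these, 203 were also among the genes tested with the filter, and 91 of the 203 had levels that did not overlap between the lines. Without Z1flag Exp1, 0 passed. The precision of the comparison was limited by its size: the median standard error of a log2 difference was 0.306, and for 9124 genes (50.02%) the 95% interval lay within 2-fold in either direction.

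The libraries did not pair by line. The closest postconfluent pair was Z1flag Exp2 and Z2flag Exp2, whose levels differed by a median of 0.187 on the log2 scale, with 690 genes at least 2-fold apart. The Z2flag libraries differed from each other by a median of 0.323 and the Z1flag libraries by 0.461. The most distant pair was Z1flag Exp1 and Z2flag Exp1, at 0.538 with 4525 genes at least 2-fold apart. Along the first principal component of the 4 libraries, which held 63.8% of their variance, Z1flag Exp1 (76.1) and Z2flag Exp1 (-53.9) stood at the ends, and both Exp2 libraries lay between them, at -15.9 and -6.32. The biological coefficient of variation fitted within a group was 34.4% for postconfluent Z1flag and 22.6% for postconfluent Z2flag cells, against 15.9% and 8.60% for the same lines before confluence. Of the 18240 genes, 6632 were highest and 6440 lowest in Z1flag Exp1, and 5279 were highest and 5854 lowest in Z2flag Exp1.

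**Figure D1:**
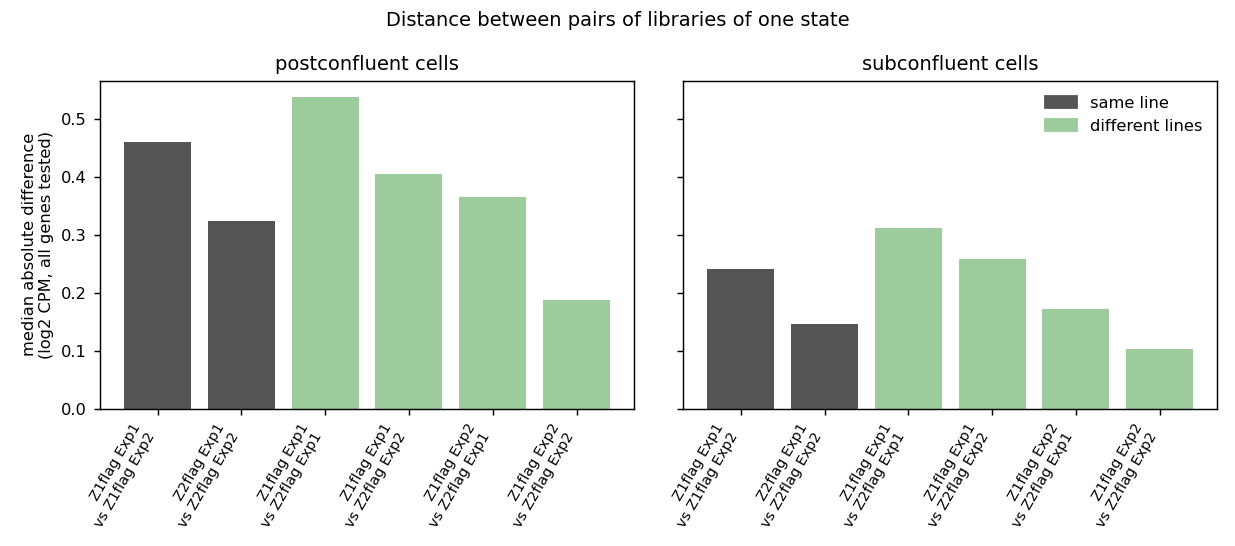
Median absolute difference in log2 CPM over the 18240 genes tested, for every pair of libraries of 1 state (bars, from 0), with pairs from the same line in dark grey and pairs from different lines in green. In postconfluent cells the pair of Exp2 libraries, from different lines, is the closest at 0.187, and Z1flag Exp1 with Z2flag Exp1 is the most distant at 0.538.

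Among genes without overlap between the lines, none of those of smallest unadjusted p passed. SCML1, which encodes a polycomb group protein, stood at 45.2, 55.3, 90.6 and 78.7 CPM, so both Z2flag libraries lay above both Z1flag libraries. Its fitted log2 difference was 0.75 ± 0.19 (SE, 2 libraries per line, edgeR adjusted p = 0.638). The subconfluent libraries of both lines held SCML1 at 24.4 to 27.3 CPM, below all postconfluent ones. CCNE2, which encodes the S phase cyclin E2, stood at 6.39, 6.17, 12.1 and 9.32 CPM, and EXO1, an exonuclease of DNA repair, at 7.26, 14.9, 26.8 and 18.4 CPM. CCNE2 overlaps the expressed genes NDUFAF6 and INTS8 on the other strand, and the sources used here do not say whether the counting used strand.

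The other genes of this kind on the higher side were RBMS1, an RNA-binding protein, SDCBP, the adaptor syntenin, UTP11, a factor of ribosomal RNA processing, GPCPD1, a glycerophosphocholine phosphodiesterase, and CEACAM5, a surface glycoprotein of colonocytes. GPCPD1 stood at 28.4, 56.5, 134 and 64.8 CPM, so that Z1flag Exp2 and Z2flag Exp2 differed little and the outer libraries gave the difference. CEACAM5 had the largest fitted log2 difference of these genes, 2.89 ± 0.87 (SE), with levels of 4.12, 2.65, 46.1 and 4.39 CPM. Z2flag Exp1 alone was high for CEACAM5, and Z2flag Exp2 lay at nearly the level of Z1flag Exp1.

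On the lower side MOCS3, an enzyme of molybdenum cofactor synthesis and tRNA thiolation, stood at 16.6, 11.3, 5.90 and 7.64 CPM (fitted log2 difference -1.05 ± 0.25 SE, edgeR adjusted p = 0.638). HSD3B1, a steroid dehydrogenase, stood at 13.6, 12.6, 6.78 and 8.18 CPM, and here the libraries of each line lay close to each other. TRANK1 stood at 30.7, 14.3, 8.88 and 10.5 CPM, and NRP1, a receptor for semaphorins and VEGF, at 107, 64.1, 42.6 and 49.7 CPM. CHST3, a chondroitin sulfotransferase, PSKH1, a kinase, HPS6, a subunit of a lysosome biogenesis complex, and PPP1R10, a regulator of protein phosphatase 1, completed the group. In all 8 of these genes Z1flag Exp1 was the highest library and Z2flag Exp1 the lowest. For 5 of the 8 (MOCS3, HSD3B1, PSKH1, HPS6 and PPP1R10), all subconfluent libraries lay above all postconfluent ones.

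**Figure D2:**
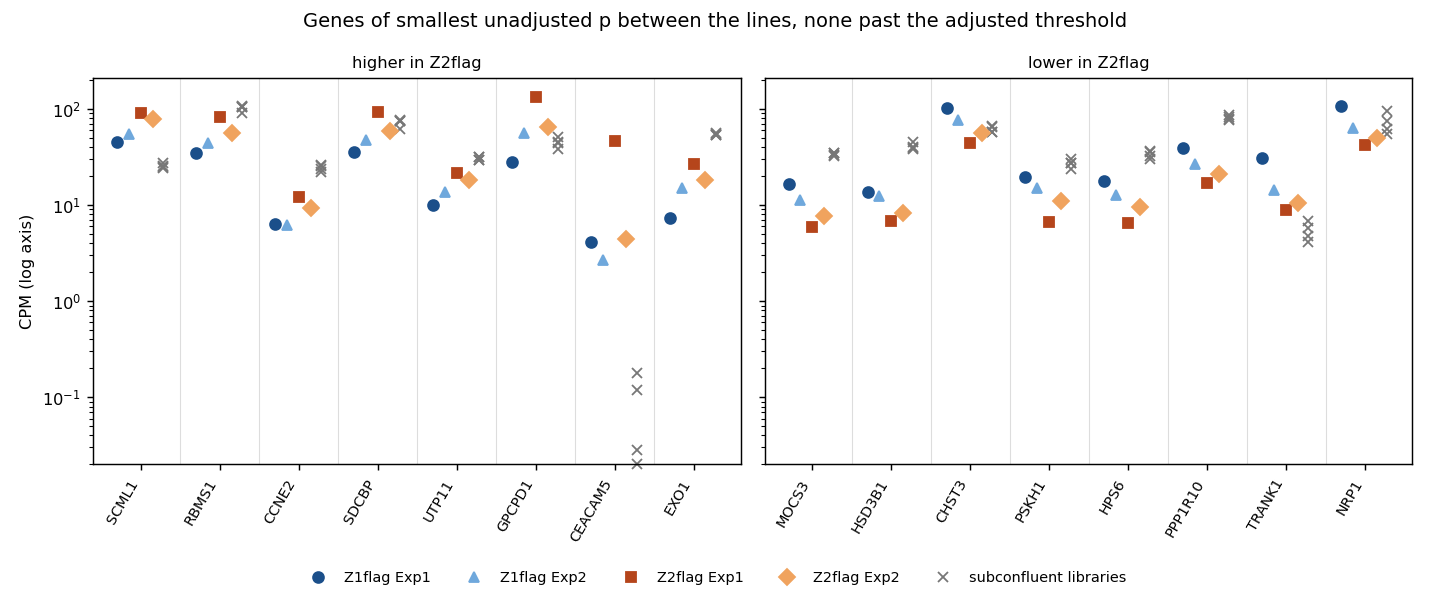
CPM (log axis) of the 16 genes of smallest unadjusted p between the lines, 8 higher and 8 lower in Z2flag cells, in each postconfluent library (coloured symbols) and in the 4 subconfluent libraries (crosses, with a level of 0 drawn on the lower edge). The lines do not overlap in any of the 16, and for CEACAM5 the gap between Z2flag Exp2 (4.39 CPM) and Z1flag Exp1 (4.12 CPM) is small beside that between the Z2flag libraries.

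Without Z1flag Exp2, 14 of these 16 genes passed an adjusted p of 0.05 in the edgeR test, all but CCNE2 and CEACAM5, and with no filter 6 did, while under all other alternatives none did.

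Few genes had a small p in both states. At an unadjusted p under 0.05 in each state, 10 genes had the same sign and 2 the opposite sign. Over all 18240 genes, 7.17% had such a p after confluence and 1.07% before it. Whether the overlap exceeds what these shares alone would give was not tested. Among the former, DSC3, a desmosomal cadherin, stood at 1.63, 3.11, 9.04 and 6.01 CPM after confluence and at 4.91 and 8.74 against 12.8 and 17.1 CPM before it. RYR2, a calcium release channel, was the reverse, at 16.5, 5.26, 4.36 and 3.25 CPM after confluence. Both were singled out after their values were seen, and neither passed an adjusted p of 0.05 in either state.

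Proliferation separated Z1flag Exp1 from the other 3 libraries. Of 52 DNA replication genes, 28 were at least 2-fold lower in Z1flag Exp1 than in Z1flag Exp2, against 6.34% of all genes tested, and 0 were 2-fold higher, against 11.5%. With 1 library on each side these are fold counts and carry no test. Of 50 genes of mitosis, 22 were at least 2-fold lower, and of 46 replication-dependent histone genes, 40 were. Z1flag Exp1 was the lowest of the 4 libraries for 46 of the 52, 45 of the 50 and 43 of the 46. It was so for 6440 of all 18240 genes. In bulk RNA, fewer dividing cells and less RNA of these genes per cell cannot be told apart.

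CDT1, which licenses replication origins, stood at 16.3, 57.6, 51.0 and 53.4 CPM. ORC1, a subunit of the origin recognition complex, stood at 10.0, 36.5, 28.4 and 33.8 CPM, and RRM2, a subunit of ribonucleotide reductase, at 29.8, 92.2, 86.2 and 99.7 CPM. The mitotic kinase gene AURKB stood at 22.8, 82.7, 65.5 and 73.9 CPM. In these genes the other 3 libraries, from both lines, lay close together and Z1flag Exp1 lay well below them. The histone gene H2AC16 was also lowest in Z1flag Exp1, at 22.5, 86.4, 61.1 and 73.4 CPM, but it overlaps H2BC15, and reads of the histone family may be split among similar copies.

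Against the mean of the subconfluent libraries, the DNA replication genes were lower in all 4 postconfluent libraries, by a median of -1.999 on the log2 scale in Z1flag Exp1 and of -1.26, -1.16 and -1.25 in the others. The genes of mitosis had medians of -1.31, -0.45, -0.51 and -0.55. Over both lists the median log2 difference between the lines, Z2flag minus Z1flag, was 0.35 and 0.37, against -0.01 over all genes tested. Without Z1flag Exp1 these medians were -0.07 and 0.06. No member of either list passed an adjusted p of 0.05, and 20 of the 50 mitosis genes were higher in both Z2flag libraries than in either Z1flag library, against 12.9% of all genes tested. NCAPG, a condensin subunit, was one of them, at 31.5, 43.5, 64.2 and 50.1 CPM.

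Genes that restrain the cell cycle were not higher as a group in Z1flag Exp1. Of 27 tested inhibitors and quiescence genes, 0 were at least 2-fold higher there than in Z1flag Exp2 and 5 were lower. The shares of all genes tested were 11.5% and 6.34%. Z1flag Exp1 was the highest of the 4 libraries for 5 of the 27 and the lowest for 15. MXD1, an antagonist of MYC, stood at 20.5, 43.7, 75.5 and 50.2 CPM, and CDKN2D, an inhibitor of CDK4 and CDK6, at 6.13, 14.4, 16.3 and 15.5 CPM. Among 18 stem cell and Wnt genes 4 were at least 2-fold lower in Z1flag Exp1, against 6.34% of all genes tested. AXIN2, a feedback inhibitor of Wnt signalling, was one of them, at 6.92, 20.6, 21.7 and 13.2 CPM. MYC stood at 27.6, 63.8, 138 and 42.5 CPM, lowest in Z1flag Exp1 and highest in Z2flag Exp1.

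Most heat shock genes were also lowest in Z1flag Exp1. In vertebrate cells heat shock factor 1 binds inverted repeats of the letters NGAAN, called heat shock elements, and raises the transcription of chaperone genes when proteins misfold. HSPA6, an inducible member of the HSP70 family that is nearly silent in unstressed cells, stood at 0.908, 25.3, 29.2 and 30.9 CPM, from 24, 496, 530 and 513 counts. In the subconfluent libraries it lay between 0 and 0.0281 CPM. Z1flag Exp2 was 27.9-fold above Z1flag Exp1 (95% counting interval 18.5 to 43.9), while the Z2flag libraries hardly differed.

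The promoters of HSPA6 and of a second inducible HSP70 gene, HSPA1B, are shown because both genes are known targets of that factor and were several-fold lower in Z1flag Exp1 than in Z1flag Exp2. They run from 250 bases before to 50 bases after the RefSeq gene start (GRCh38.p14), at chr1:161524290-161524589 and chr6:31827488-31827787, both on the plus strand. Capitals mark matches to TTCNNGAA or GAANNTTC, a core of the heat shock element in either arrangement. The HSPA6 promoter holds 3 matches, of which 2 overlap, and the HSPA1B promoter 1.
HSPA6: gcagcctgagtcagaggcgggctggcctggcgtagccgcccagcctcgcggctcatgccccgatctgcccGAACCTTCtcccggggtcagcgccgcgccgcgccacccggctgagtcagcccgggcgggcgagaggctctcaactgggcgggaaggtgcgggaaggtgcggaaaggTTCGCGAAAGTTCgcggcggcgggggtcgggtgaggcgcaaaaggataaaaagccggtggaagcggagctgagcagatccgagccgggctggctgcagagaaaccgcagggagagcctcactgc
HSPA1B: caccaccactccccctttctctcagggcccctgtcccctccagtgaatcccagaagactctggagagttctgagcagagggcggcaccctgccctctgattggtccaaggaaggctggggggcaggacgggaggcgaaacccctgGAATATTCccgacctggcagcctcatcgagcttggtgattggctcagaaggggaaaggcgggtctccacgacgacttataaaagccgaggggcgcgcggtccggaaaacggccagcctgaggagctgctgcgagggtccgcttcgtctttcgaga
The 8-letter core was found in 13.5% of 35116 RefSeq promoters of this length, and 1.71% held 2 or more. Of 29 heat shock genes, 25 had a promoter in the table, and 10 of these (40%) held the core. A match is a description of these letters, and binding was not measured here.

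HSPA1B stood at 69.9, 390.3, 532 and 387 CPM. Its neighbour HSPA1A is nearly identical, so reads may be split between them, and their sum was 151, 702, 960.1 and 690 CPM. The small chaperone gene CRYAB stood at 0.870, 7.86, 18.5 and 9.32 CPM. HSP90AA1, the inducible HSP90, stood at 306, 1018, 2035 and 1081 CPM, against 1091 to 1418 CPM before confluence. In all of these Z1flag Exp1 was lowest, the Exp2 libraries of both lines were alike, and for all but HSPA6 Z2flag Exp1 was highest.

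Of the 29 heat shock genes, 13 were at least 2-fold lower in Z1flag Exp1 than in Z1flag Exp2, against 6.34% of all genes tested. Z1flag Exp1 was the lowest of the 4 libraries for 28 and Z2flag Exp1 the highest for 24, against 6440 and 5279 of all 18240 genes. Between the lines 13 of the 29 were higher in both Z2flag libraries without overlap, against 12.9% of all genes tested, and 0 passed an adjusted p of 0.05. CHORDC1, an HSP90 cofactor, stood at 201, 254, 555 and 304 CPM, with a fitted log2 difference of 0.92 ± 0.28 (SE, edgeR adjusted p = 0.638). The median difference of the list was 0.66, and it was 0.31 without Z1flag Exp1 and 0.41 without Z2flag Exp1.

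Other stress programmes followed the same step at Z1flag Exp1. In the integrated stress response, cells slow translation and raise transcription factors such as ATF3. There 9 of 23 genes were at least 2-fold lower in Z1flag Exp1 than in Z1flag Exp2, against 6.34% of all genes tested. Z1flag Exp1 was lowest for 22 of the 23, against 6440 of all 18240 genes. ATF3 stood at 8.70, 53, 103 and 57.7 CPM, with the level in Z1flag Exp1 near the 5.61 to 8.52 CPM of the subconfluent libraries. DDIT4, an inhibitor of mTORC1, stood at 50.9, 291, 313 and 259.6 CPM. PPP1R15A, the phosphatase subunit that restores translation, stood at 57.6, 204, 288 and 181 CPM.

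In the unfolded protein response of the endoplasmic reticulum 6 of 24 genes were at least 2-fold lower in Z1flag Exp1, against 6.34% of all genes tested. Z1flag Exp1 was lowest for 19 of the 24, against 6440 of all 18240 genes and 5344 of 13184 protein-coding genes. HSPA5, the chaperone BiP, stood at 389, 1255, 1483 and 1128 CPM, against 461 to 486 CPM before confluence. Of 26 hypoxia targets 11 were at least 2-fold lower and Z1flag Exp1 was lowest for 22, beside the same numbers over all genes. SLC2A3, the glucose transporter GLUT3, stood at 1519, 6859, 4004 and 4804 CPM, and the peptide hormone gene ADM at 38.2, 146, 149 and 122 CPM. For 3 of these 4 lists the level of Z1flag Exp1 lay near or below the subconfluent mean: the medians against that mean were -0.45, 0.41, 0.59 and 0.37 for heat shock, -0.03, 0.62, 0.85 and 0.73 for the integrated stress response, and -0.24, 0.50, 0.42 and 0.54 for the unfolded protein response. For hypoxia targets all 4 libraries lay above it, by 0.78, 1.67, 1.57 and 1.72.

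**Figure D3:**
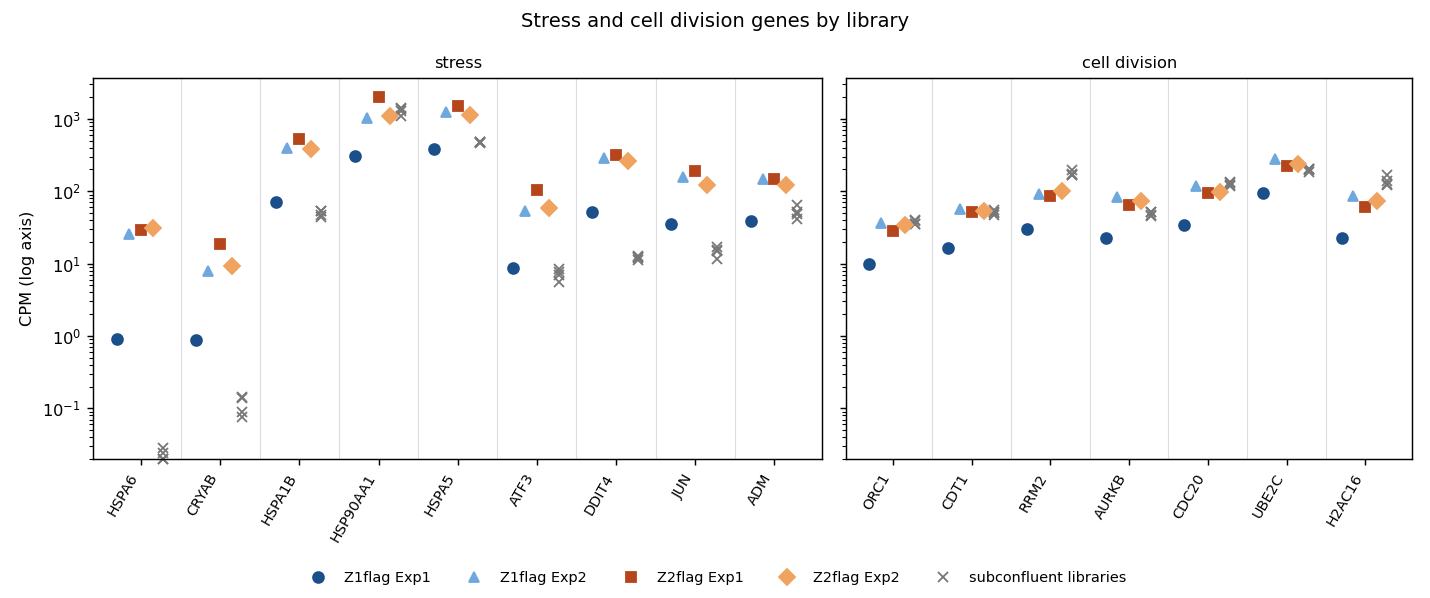
CPM (log axis) of 9 stress genes and 7 genes of cell division in each postconfluent library (coloured symbols) and in the 4 subconfluent libraries (crosses, with a level of 0 drawn on the lower edge). Z1flag Exp1 is the lowest postconfluent library for each of the 16 genes, with HSPA6 at 0.908 CPM against 25.3 to 30.9 CPM in the others.

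The higher side of Z1flag Exp1 held genes of the mature enterocyte. Of 16 digestive hydrolases 8 were at least 2-fold higher in Z1flag Exp1 than in Z1flag Exp2 and 0 were lower, against 11.5% and 6.34% of all genes tested. Part of this list is of low level, since 8 of the 16 reached 5 CPM in 2 libraries. All genes at least 2-fold higher in Z1flag Exp1 had a median of 1.38 CPM, against 12.3 CPM for all genes tested. ANPEP, aminopeptidase N of the brush border, stood at 50.3, 20.6, 15.5 and 24.2 CPM, against 0.766 to 2.33 CPM before confluence. In this gene too the other 3 libraries lay together, below Z1flag Exp1. GUCY2C, the receptor for guanylin peptides, stood at 90.8, 10.4, 14.9 and 17.3 CPM, so that Z1flag Exp1 was 8.77-fold above Z1flag Exp2 (95% counting interval 7.60 to 10.2).

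Enzymes of xenobiotic metabolism behaved alike, with 10 of 27 at least 2-fold higher in Z1flag Exp1 than in Z1flag Exp2 and 1 lower. The shares of all genes tested were 11.5% and 6.34%. UGT2A3, a glucuronosyltransferase, stood at 53.7, 8.06, 5.95 and 8.54 CPM. CYP3A5, a cytochrome P450 of drug oxidation, stood at 57.7, 8.52, 25.0 and 13.7 CPM. GSTA1, a glutathione transferase, stood at 74.2, 16.8, 11.6 and 20.5 CPM, and its near copy GSTA2 at 102, 17.8, 10.0 and 20.3 CPM. Z1flag Exp1 was the highest of the 4 libraries for 18 of the 27 enzymes, against 6632 of all 18240 genes.

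The largest steps upward in Z1flag Exp1 among genes of at least 10 CPM on average over both Z1flag libraries were those of TM4SF20 at 19.1, 1.53, 0.992 and 2.35 CPM, KCNJ16, a potassium channel, at 42.5, 3.83, 5.46 and 5.41 CPM, and TTN at 1474, 149, 112 and 225 CPM. TTN encodes the muscle protein titin, spans chr2:178525989-178830802, and shares its strand with the overlapping gene CCDC141. TM4SF20 reached that average through Z1flag Exp1 alone. GUCY2C, given above, followed, and then TM4SF4, ANXA13, an annexin of the intestinal epithelium, TFEC and CYP3A5, each of these 4 between 6.77-fold and 7.86-fold above Z1flag Exp2. The largest steps downward beside HSPA6, ATF3 and DDIT4 were those of DHRS2, EREG, ARRDC3, PLK2 and BMP7, each between 5.94-fold and 6.97-fold lower. EREG, which encodes the growth factor epiregulin, stood at 14.1, 87.1, 195 and 63.0 CPM.

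Not every part of the enterocyte programme separated Z1flag Exp1. All 4 libraries expressed VIL1, CDH17 and EPCAM, markers of the intestinal epithelium, with VIL1 at 646, 509.6, 418 and 474 CPM. APOA4, an apolipoprotein of chylomicrons, stood at 260, 209.5, 368 and 224 CPM, against 3.24 to 8.41 CPM before confluence, and ALPI, intestinal alkaline phosphatase, at 60.2, 41.6, 66.4 and 46.0 CPM. FABP2, a fatty acid binding protein of small intestinal enterocytes, had 0 to 3 counts per library. Of 23 brush border genes 3 were at least 2-fold higher in Z1flag Exp1 than in Z1flag Exp2 and 0 lower. MYO7B, a myosin of the microvillus tip, was one of them, at 58.9, 16.1, 38.3 and 20.3 CPM. Of 25 genes of lipid absorption 3 were higher and 2 lower. The shares of all genes tested were 11.5% higher and 6.34% lower, so neither list held many more higher genes than its share. Against the subconfluent mean the digestive hydrolases had medians of 2.60, 1.72, 1.67 and 1.52 on the log2 scale, and the lipid absorption genes 1.45, 1.53, 1.52 and 1.57.

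**Figure D4:**
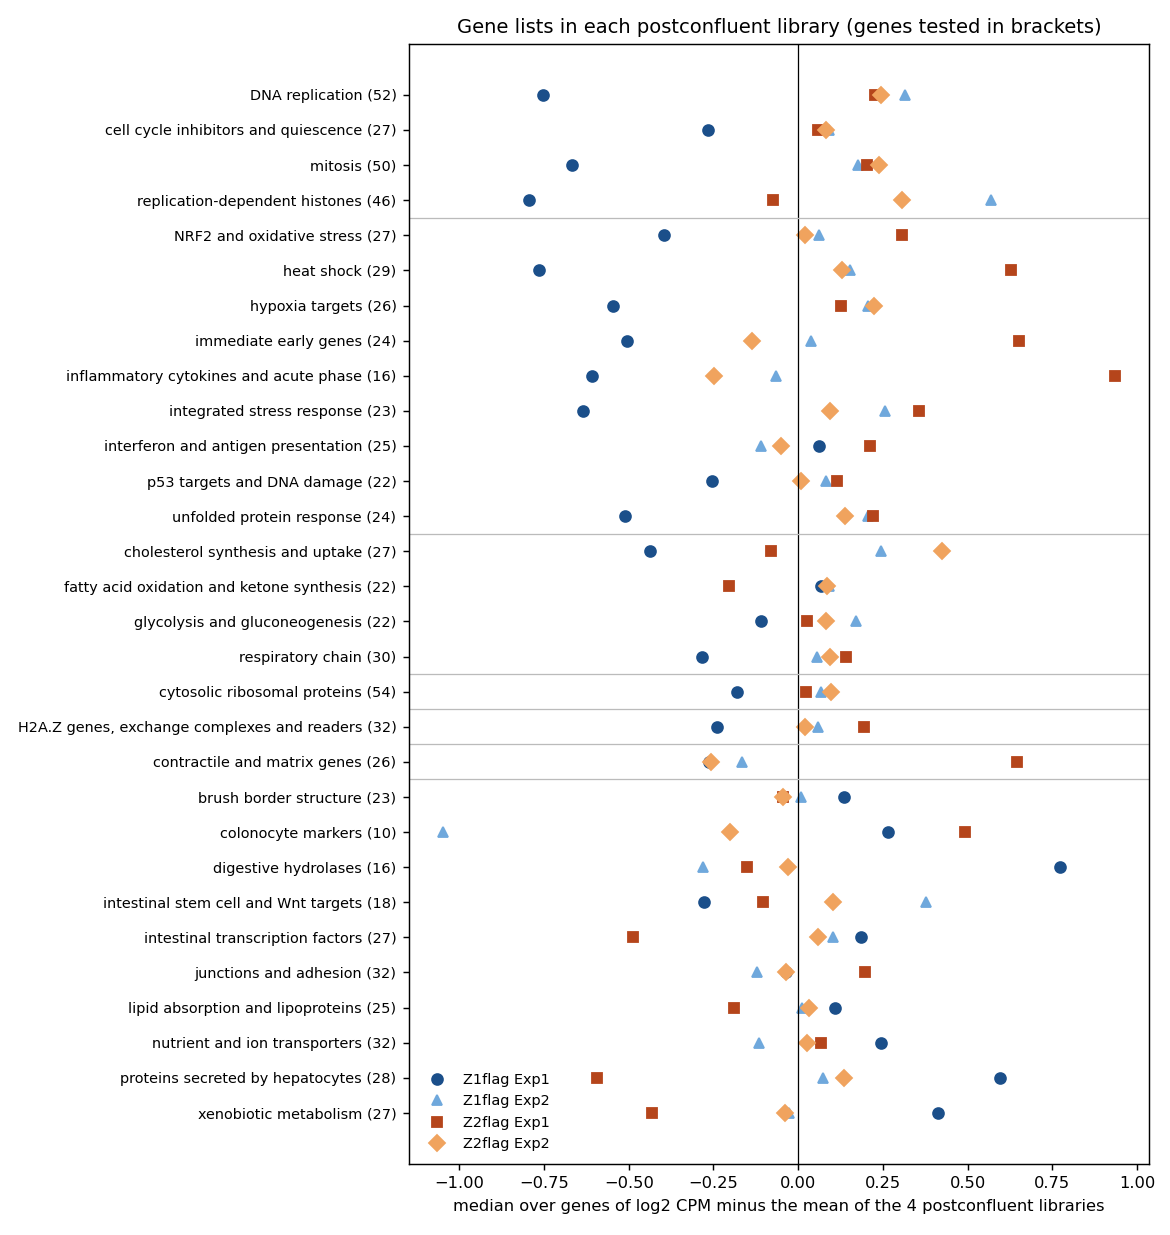
Median over the tested genes of each list (number in brackets) of log2 CPM minus the mean of the 4 postconfluent libraries, for lists with at least 10 tested genes, with 1 symbol per library. Z1flag Exp1 lies lowest for the proliferation lists and for most stress lists (heat shock -0.77, DNA replication -0.75) and highest for digestive hydrolases (0.77), and Z2flag Exp1 lies apart for contractile and matrix genes (0.65) and for proteins secreted by hepatocytes (-0.59).

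The Z2flag libraries differed from each other in partly different genes. Of 26 contractile and matrix genes 12 were at least 2-fold higher in Z2flag Exp1 than in Z2flag Exp2 and 0 were lower, against 4.38% and 6.16% of all genes tested, again with 1 library on each side and no test. Z2flag Exp1 was the highest of the 4 libraries for 20 of the 26, against 5279 of all 18240 genes. Several of these genes are known targets of YAP and TAZ, coactivators that respond to cell density and tension and bind DNA through TEAD proteins. CCN1, a matricellular protein and one such target, stood at 4.50, 24.5, 75.2 and 18.8 CPM. ANKRD1, another, stood at 78.0, 68.9, 239 and 49.7 CPM.

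The promoter of ANKRD1 is shown for its TEAD letters (chr10:90921038-90921337, GRCh38.p14, minus strand, from 250 bases before to 50 after the RefSeq gene start). Capitals mark GGAATG, searched on both strands, of which the window holds 2.
ANKRD1: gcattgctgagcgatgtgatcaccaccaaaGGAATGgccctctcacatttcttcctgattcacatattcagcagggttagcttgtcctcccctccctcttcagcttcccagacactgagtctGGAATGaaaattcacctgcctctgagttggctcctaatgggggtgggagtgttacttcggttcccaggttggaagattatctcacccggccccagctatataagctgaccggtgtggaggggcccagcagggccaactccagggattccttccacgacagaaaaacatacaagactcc
These letters were found in 14.03% of the 35116 promoters. Of the 26 contractile and matrix genes 18 had a promoter in the table, and 3 of these (16.7%) held them, close to the share of all promoters.

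TAGLN, which encodes the actin-binding protein transgelin, stood at 30.1, 51.4, 169 and 20.8 CPM, far below its 540.3 to 1492 CPM in subconfluent cells, and overlaps PCSK7 on the other strand. ITGA2, a collagen receptor subunit, stood at 35.9, 15.5, 74.1 and 18.3 CPM. Of the 26 genes 3 were higher in both Z2flag libraries without overlap, against 12.9% of all genes tested. PLAU, the protease urokinase, was one of them, at 4.39, 5.41, 20.4 and 6.68 CPM. For all of these Z2flag Exp1 was highest and Z2flag Exp2 lay near the Z1flag libraries. The median of the list against the subconfluent mean was 0.25 in Z2flag Exp1 and between -1.06 and -0.47 in the other 3 libraries.

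Inflammatory genes and immediate early genes were also high in Z2flag Exp1. Of 16 inflammatory genes 8 were at least 2-fold higher there than in Z2flag Exp2, and of 24 immediate early genes 8 were, with 0 lower in either list. The shares of all genes tested were 4.38% higher and 6.16% lower. These lists also had a step between the Z1flag libraries. In Z1flag Exp1, 6 of the 16 and 8 of the 24 were at least 2-fold lower than in Z1flag Exp2, and 1 and 2 were higher. For that pair the shares of all genes tested were 6.34% and 11.5%. Z1flag Exp1 was the lowest library for 9 of the 16 and 16 of the 24, against 6440 of all 18240 genes. BIRC3, an inhibitor of apoptosis and NF-kB target, stood at 30.9, 20.7, 156 and 23.4 CPM. TNFAIP3, a feedback inhibitor of NF-kB, stood at 33.4, 74.3, 138 and 69.5 CPM, and the chemokine gene CCL20 at 11.2, 12.4, 40.9 and 13 CPM. DUSP5, a phosphatase induced by ERK signalling, stood at 41.5, 48.9, 151 and 48.8 CPM. The peptide hormone genes EDN1 and NPPB, the receptor genes OLR1 and TNFRSF9, and the glycoprotein gene CEACAM6 were the other large steps upward. CEACAM6 stood at 11.7, 6.58, 115 and 7.58 CPM, so that Z2flag Exp1 was 15.2-fold above Z2flag Exp2 (95% counting interval 12.7 to 18.3). CEACAM5 and CEACAM6 belong to a list of colonocyte markers, of which 10 were tested. Of the 10, 5 were at least 2-fold higher in Exp1 than in Exp2 of Z1flag cells and 5 of Z2flag cells. The shares of all genes tested were 11.5% and 4.38%. In Z1flag cells 0 were lower and in Z2flag cells 1, against 6.34% and 6.16%. The tested markers summed to 627, 318, 534 and 368 CPM, highest in Z1flag Exp1. OLR1 overlaps TMEM52B on the other strand.

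Between the lines 8 of the 16 inflammatory genes had an unadjusted p under 0.05, all higher in Z2flag cells, against 2.25% of all genes tested, but 0 passed the adjusted threshold. Without overlap between the lines 1 of the 16 was higher and 1 lower in Z2flag cells, against 12.9% and 15.3% of all genes tested. The median log2 difference of the 16 genes was 0.91 with all libraries and 0.15 without Z2flag Exp1. Over the 26 contractile and matrix genes it was 0.39 and turned to -0.04, and over the 24 immediate early genes it was 0.51 and 0.09. Genes of the NRF2 response to oxidants shared this pattern in part. Of 27, 4 were at least 2-fold higher in Z2flag Exp1 than in Z2flag Exp2, against 4.38% of all genes tested. Without overlap 9 were higher in both Z2flag libraries, against 12.9%. Z1flag Exp1 was the lowest library for 24 of the 27 and Z2flag Exp1 the highest for 22, against 6440 and 5279 of all 18240 genes. GPX2, a glutathione peroxidase of the gut epithelium, stood at 4.77, 6.33, 29.7 and 7.10 CPM.

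Proteins secreted by hepatocytes were low in Z2flag Exp1. Of 28 such genes, 12 were at least 2-fold lower in Z2flag Exp1 than in Z2flag Exp2 and 0 were higher. The shares of all genes tested were 6.16% and 4.38%. Z2flag Exp1 was the lowest of the 4 libraries for 20 of the 28, against 5854 of all 18240 genes. FGG, which encodes the gamma chain of fibrinogen, stood at 521, 416, 123 and 631 CPM, and FGA, the alpha chain, at 91.3, 52.6, 19.1 and 71.7 CPM. SERPINA6, the corticosteroid-binding globulin, stood at 112, 21.1, 5.13 and 25.9 CPM, with the Exp1 libraries at both ends of the range. HPX, the haem carrier hemopexin, stood at 50.7, 34.6, 10.8 and 31.0 CPM.

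In the same list 8 genes were at least 2-fold higher in Z1flag Exp1 than in Z1flag Exp2, against 11.5% of all genes tested. Z1flag Exp1 was the highest library for 19 of the 28, against 6632 of all 18240 genes. Against the subconfluent mean the list had medians of 2.61, 1.98, 1.46 and 2.43 on the log2 scale. Between the lines 7 of the 28 were lower in both Z2flag libraries without overlap, against 15.3% of all genes tested, and 0 passed an adjusted p of 0.05. The median log2 difference was -0.49, and it was -0.15 without Z2flag Exp1 and -0.20 without Z1flag Exp1. The other large steps downward in Z2flag Exp1 were those of CYP4F3, ITIH2, METTL7A, SMLR1 and SERPIND1, which overlaps PI4KA on the other strand.

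Transcription factors of the intestine and liver were lowest in Z2flag Exp1 for 17 of 27 genes, against 5854 of all 18240 genes. FOXA1, a pioneer factor of endoderm, stood at 129, 92.5, 49.5 and 86.4 CPM, and MAF, which is active in mature enterocytes, at 39.7, 15.4, 9.04 and 14.4 CPM. ELF3, an epithelial factor that responds to inflammatory signals, ran the other way, at 82.4, 168, 247 and 147 CPM. APOB, the structural protein of chylomicrons, stood at 1284, 714, 433 and 874 CPM. FOXA1, MAF, ELF3 and APOB placed Z1flag Exp1 and Z2flag Exp1 at opposite ends and both Exp2 libraries between them. Over the 27 factors Z1flag Exp1 was the highest library for 12 and the lowest for 8, against 6632 and 6440 of all 18240 genes. Their medians against the postconfluent mean were 0.19, 0.10, -0.49 and 0.06. Between the lines 7 of the 27 were lower in Z2flag cells without overlap and 1 higher, against 15.3% and 12.9% of all genes tested. The median log2 difference was -0.42, and -0.13 without Z2flag Exp1.

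**Figure D5:**
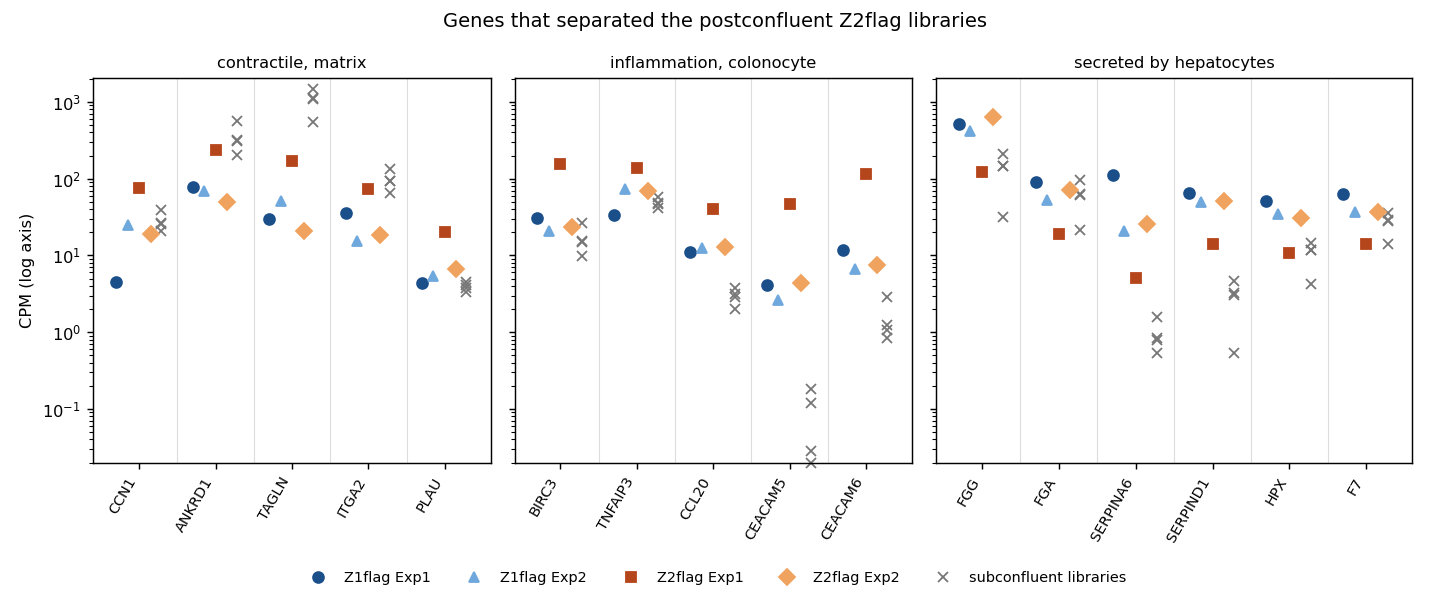
CPM (log axis) of genes that differed between the Z2flag libraries, in each postconfluent library (coloured symbols) and in the 4 subconfluent libraries (crosses, with a level of 0 drawn on the lower edge). Z2flag Exp1 is the highest postconfluent library for the 10 genes on the left and centre (CEACAM6 at 115 CPM against 6.58 to 11.7) and the lowest for the 6 on the right (FGG at 123 CPM against 416 to 631).

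Metabolic lists differed in how far their genes moved between libraries. Of 22 genes of glycolysis and gluconeogenesis, 3 were at least 2-fold higher and 8 at least 2-fold lower in Z1flag Exp1 than in Z1flag Exp2, against 11.5% and 6.34% of all genes tested. Between the Z2flag libraries 0 of the 22 were 2-fold higher and 5 were 2-fold lower in Exp1, against 4.38% and 6.16%. None of 30 tested respiratory chain genes of the nuclear genome and none of 54 cytosolic ribosomal protein genes differed 2-fold between the libraries of either line. Both lists were lowest in Z1flag Exp1 for most members, 24 of 30 and 49 of 54, by small steps, against 6440 of all 18240 genes. COX5B, a subunit of cytochrome c oxidase, stood at 83.2, 123, 137 and 129 CPM. Of 27 genes of cholesterol synthesis and uptake, 22 were highest in Z2flag Exp2, against 2202 of all 18240 genes. In Z1flag Exp1 7 of them were at least 2-fold lower than in Z1flag Exp2, against 6.34% of all genes tested. HMGCS1, an early enzyme of that route, stood at 751, 1261, 1403 and 1784 CPM, so here the Exp2 libraries were not alike.

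Genes that handle H2A.Z had a small median difference between the lines. All 32 listed genes of the H2A.Z exchange complexes and their readers were tested, and 0 passed an adjusted p of 0.05. Without overlap between the lines 7 were higher and 2 lower in Z2flag cells, against 12.9% and 15.3% of all genes tested. Within a line, 0 differed 2-fold between the Z1flag libraries and 1 between the Z2flag libraries, against 3247 and 1923 of all 18240 genes. MEAF6 and ING3, subunits of acetyltransferase complexes, were higher in both Z2flag libraries. MEAF6 stood at 16.3, 21.6, 31.1 and 25.6 CPM and ING3 at 5.18, 6.28, 11.9 and 6.38 CPM. For ING3 Z2flag Exp1 alone was high, and Z2flag Exp2 lay at nearly the level of Z1flag Exp2. RUVBL2, an ATPase shared by the exchange complexes, was low in Z1flag Exp1 alone, at 37.1, 70.1, 67.0 and 57.0 CPM, and MBTD1, a methyl-lysine reader of the TIP60 complex, was high there alone, at 79.7, 43.0, 44.5 and 44.4 CPM. Without Z1flag Exp1 the fitted log2 difference of RUVBL2 turned from 0.21 to -0.16 and that of MBTD1 from -0.47 to 0.068. The median log2 difference of the list was 0.15, and it was 0.00 without Z1flag Exp1.

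Markers of other cell types were measured in all 4 libraries. Of 13 goblet cell markers 7 were tested, and the list summed to 892 and 719 CPM in Z1flag and to 604 and 832 CPM in Z2flag cells, most of it from AGR2, while MUC2 had 0 to 2 counts per library and ATOH1 none. Of 15 enteroendocrine markers 5 were tested, with a sum of 18.8 and 11.8 CPM against 10.9 and 12.7 CPM, and CHGA, NEUROD1 and GCG at 0. Of 9 Paneth cell markers 5 were tested, with a sum of 10.97 and 18.9 CPM against 28.1 and 21.1 CPM, and DEFA6 and REG1A at 0. Of 10 fibroblast markers 5 were tested, with a sum of 85.3 and 78.5 CPM against 86.9 and 72.2 CPM, and COL1A2 and POSTN at 0. The 13 leukocyte and endothelial markers summed to 30.4 and 22.8 CPM against 21.6 and 18.9 CPM. PTPRC and KDR had no counts, while PECAM1 stood at 21.6, 13.2, 6.73 and 10.6 CPM. The tuft cell markers summed to 54.8 and 40.8 CPM against 38.3 and 49.8 CPM, with DCLK1 and BMX at 0. Some listed markers were expressed in every library, among them LYZ at 7.83 to 21.1 CPM and COL1A1 at 28.1 to 39.3 CPM. The part of these markers in the steps described above was not tested.

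RNA classes moved within both lines as well. Of 997 long intergenic non-coding RNA genes 283 were at least 2-fold higher in Z1flag Exp1 than in Z1flag Exp2 and 42 lower, and of 1106 antisense RNA genes 254 were higher and 58 lower. Over all genes tested 11.5% were higher and 6.34% lower. Z1flag Exp1 was the highest of the 4 libraries for 600 and 645 of these RNA genes, against 6632 of all 18240 genes. Between the Z2flag libraries 66 and 51 were at least 2-fold higher in Exp1 and 152 and 189 lower, against 4.38% and 6.16% of all genes tested. Z2flag Exp1 was the lowest library for 470 and 596, against 5854 of all genes. Between the lines 268 and 362 were lower in Z2flag cells without overlap, against 15.3%, and 59 and 67 higher, against 12.9%. The median log2 difference was -0.46 in each class, and 0 passed an adjusted p of 0.05. Among protein-coding genes the step between the Z1flag libraries followed the length of the gene in the genome. Its medians were -0.29, -0.17, -0.03 and 0.18 from the shortest to the longest of 4 groups of nearly equal size. Between the Z2flag libraries they were -0.08, -0.00, 0.04 and 0.04. The shifts in Z1flag Exp1 stand beside its high share of reads over no feature. Their part in the steps of the gene groups above was not tested. With protein-coding genes alone, 1873 genes were at least 2-fold apart between the Z1flag libraries, against 3247 of all genes, and 971 against 1923 between the Z2flag libraries.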

How the data were processed

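Libraries were stranded, depleted of rRNA and read in pairs on a NextSeq 500, per the labels' protocols. The deposited values are raw counts per Ensembl gene ID, made by the authors with STAR 2.5.2b, SAMtools and HTSeq on hg38, per the submitters' processing notes. The sources used here do not give the annotation, the HTSeq mode or its strand setting. HTSeq's classes of unassigned reads were left out of tests. The 37 mitochondrial IDs hold no counts. GENCODE v29 gave positions on GRCh38 for 58039 of 58302 IDs, and 57532 had a symbol.

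The test was edgeR 4.0.16 in R 4.3.3 (TMM, robust quasi-likelihood F test, 4 group means over 8 libraries, 4 residual degrees of freedom) after filterByExpr (minimum count 10, minimum total 15), with Benjamini-Hochberg adjustment over 18240 genes. Log2 CPM used a prior count of 2. Differences between 2 libraries of a line have no test, and their intervals cover counting error only. DESeq2 1.42.0 and limma 3.58.1 (voom) were alternatives, beside other scalings, filters and left-out libraries. The pipeline was tested on simulated data.

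The comparison, the 37 gene lists and the rules were chosen with earlier results of these data known. Named were H2AZ1 and H2AZ2, the 8 genes of smallest unadjusted p in each direction with a mean of at least 5 CPM and no overlap (no gene passed), for each line the 8 genes with the largest log2 difference between its libraries in each direction with a mean of at least 10 CPM over these libraries, and per list up to 4 members with the widest range and 2 with the smallest unadjusted p at a mean of at least 5 CPM. Enterocyte markers were named from their own list. Genes without a symbol and small structural RNAs were counted and not named. Deviations of the Exp1 libraries of the 2 postconfluent groups correlated across genes with r = -0.18, so the numbers were not taken as pairs.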

Additional observations from a re-analysis of the deposited data

Results flagged for a closer look

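Reads that overlapped no annotated feature are outside the gene counts. They made up 31.4% of the reads listed for postconfluent Z1flag Exp1 and 32.0% for subconfluent Z1flag Exp1, against 20.6% to 24.5% in the other 6 libraries. No untagged or control library stands beside them, so the level was compared with the other libraries only.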

How the results depend on the processing

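In postconfluent cells the count of genes that passed between the lines was 0 under RLE and upper-quartile scaling, DESeq2, voom, a CPM filter (5 or more in 2 libraries), protein-coding genes alone, removal of small structural RNAs, the postconfluent libraries alone, the share of reads over no feature as a covariate, and without both libraries of the highest such share. With no filter it was 221, in subconfluent cells 2 and for the difference of the line differences 41. Leaving out 1 library at a time gave 0 to 2252 genes, and 0 to 190 for the difference of the line differences. Both highest values came without postconfluent Z1flag Exp2, and all others were 0. The share of genes at an unadjusted p under 0.05 that were higher in Z2flag cells moved with scaling: 411 higher and 897 lower became 511 and 792 with RLE and 272 and 1174 with upper-quartile scaling, which moved the median of all genes to -0.09. It turned round without postconfluent Z1flag Exp1 (514 and 220), without both libraries of the highest share over no feature (326 and 221) and, narrowly, with that share as a covariate (494 and 443).

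With the replicate number as a block 0 genes passed, with 349 higher and 715 lower at an unadjusted p under 0.05, and with the block within each state 0 passed. The crossed pairing, chosen after seeing the data like the covariate, the protein-coding genes and the exclusion of both libraries, gave 0 calls, with 1044 higher and 1619 lower at an unadjusted p under 0.05 and a lowest adjusted p of 0.144.

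The number of genes at least 2-fold apart between the Z1flag libraries was 1288 with the CPM filter, 6122 with no filter and 1873 among protein-coding genes, which are different numbers of genes tested. Between the Z2flag libraries it was 506, 4286 and 971. The sign of the line difference was followed through the alternatives for 22 named genes, and it turned for 3. These 22 were H2AZ1, H2AZ2, the named genes that handle H2A.Z and the 16 of smallest unadjusted p. The signs of the other named genes were not followed. Leaving out 1 library at a time, the log2 difference ran from -0.039 to 0.87 for H2AZ1, from -0.16 to 0.79 for RUVBL2 and from -0.79 to 0.068 for MBTD1. Without both libraries of the highest share over no feature it was -0.051, -0.17 and 0.055. The medians of gene lists moved by less than the spread between replicates in 763 cases and by more in 51. Most of the 51 came from leaving out a postconfluent library. Without Z1flag Exp2 18 lists moved, without Z1flag Exp1 6, without Z2flag Exp1 9 and without Z2flag Exp2 9. Another 7 moved without both libraries of the highest share over no feature. Upper-quartile scaling and that share as a covariate moved 1 list each. No list moved under the other alternatives, among them leaving out a subconfluent library. Depth limits genes of few counts, since the 95% intervals given for ratios of libraries cover counting error alone.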

Other observations

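Genes of antigen presentation and the interferon response, described in no comparison above, did not move together. IFIT1 and IFIT3, antiviral effectors induced by interferon, were highest in Z1flag Exp1, at 20.1, 6.12, 4.30 and 9.32 CPM and at 21, 8.42, 6.28 and 10.5 CPM in the order used above, and both overlap LIPA on the other strand. IRF1, a transcription factor of the same response, was lowest there, at 22.3, 64.9, 78.9 and 63.4 CPM, as was the ubiquitin-like modifier ISG15, at 15.6, 34.0, 41.6 and 28.8 CPM. B2M, the light chain of MHC class I, stood at 495, 546, 822 and 637 CPM, with both Z2flag libraries above both Z1flag libraries. No gene of this list passed an adjusted p of 0.05 in the edgeR test.

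Transporters and junction proteins also split within their lists. SLC3A2, the shared subunit of amino acid exchangers, stood at 139, 443, 585 and 375 CPM, while SLC3A1, the cystine transporter subunit of the brush border, stood at 18.7, 4.85, 6.78 and 5.23 CPM. The glutamate transporter SLC1A1 stood at 75.0, 51.0, 27.7 and 46.4 CPM and the lactate transporter SLC16A1 at 129.6, 149, 234 and 164 CPM, neither with overlap between the lines. Of 32 junction genes 19 were highest in Z2flag Exp1, against 5279 of all 18240 genes. Among the 19 were the tight junction gene CLDN4 at 264, 282, 507 and 293 CPM and the desmosomal cadherin DSC2 at 40.2, 36.4, 68.4 and 42.5 CPM.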
